A study of Mus musculus with 9 samples.

Results

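The genes described here are 10 genes of the stress response driven by the transcription factors ATF4 and CHOP: Atf4, Ddit3, Ddit4, Asns, Chac1, Trib3, Sesn2, Atf5, Psat1 and Phgdh. They were taken by gene symbol, each was present in both expression tables, and they are 10 of the 24318 genes listed there. The members were chosen by what their FPKM values showed in an earlier pass over these same comparisons, so their levels and fold changes are given as a description and carry no p-values. Where a member is said below to pass the test or not, that is its place in a fit over all genes, given to describe it and not as evidence about it.

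N2A cells, a mouse neuroblastoma line used as a neuronal cell model, were transfected with a scramble siRNA or with siRNA against EXOSC3, a subunit of the RNA exosome, or DDX1, a putative RNA helicase. The labels give the genotype of the scramble cells as WT and that of the others as EXOSC3 knockdown or DDX1 knockdown, with the treatment Untreated in every sample, and all groups received a Lipofectamine transfection. There were 3 libraries for each siRNA and 9 in all, each from total RNA depleted of ribosomal RNA and prepared with a nondirectional kit. The values were FPKM (fragments scaled for transcript length and for library size) in 1 table for each knockdown, which held the 3 knockdown and the 3 scramble libraries, and N2A being a single tumour-derived line limits what the samples represent.

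In the integrated stress response, kinases that sense amino acid shortage, unfolded proteins in the endoplasmic reticulum (ER), double-stranded RNA or heme shortage phosphorylate the translation factor eIF2alpha. General translation then falls, while the Atf4 mRNA is translated more through its upstream open reading frames, and ATF4 switches on genes for amino acid synthesis and import, for redox control and for CHOP, the product of Ddit3. Much of the control of ATF4 is therefore at translation and at protein stability, and a transcript level does not show the amount of ATF4 protein.

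ATF4 binds composite C/EBP-ATF response elements together with C/EBP factors. The sequences below are shown because they hold the only matches to the element TGATGNAAN, on either strand, in the promoter windows of the members (250 bases before to 50 after each RefSeq start, GRCm38.p6). The 29 bases around each match were found at a single place in NCBIM37, the sequence of mm9, and the matching bases are in capitals.

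Asns, chr6:7643214-7643242, minus strand: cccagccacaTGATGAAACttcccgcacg
Chac1, chr2:119176774-119176802, minus strand: ctggcaggagTGATGCAACggcagggaag
Trib3, chr2:152169765-152169793, plus strand: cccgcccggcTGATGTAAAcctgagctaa

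Atf5 and Psat1 have 2 windows each, so that the 10 members have 12. A match was found in 3 of these 12 windows, those of 3 members, and in 3.95% of the 32851 RefSeq promoter windows. Counted along the gene from the RefSeq start, the Asns match began at base -23 on the strand of the gene, inside an exon of the GENCODE vM1 model. The Chac1 match began at base -194 on the opposite strand and lay outside the annotated gene. The Trib3 match began 14 bases after the RefSeq start on the opposite strand, and lay just before the start of the GENCODE model. In the 250 bases before the start alone, 2 of the 12 windows (of Asns and Chac1) and 3.44% of windows held a match. The stricter form TGATGCAAT was in none of the members' windows and in 0.192% of all windows, and TGATGAAA, which overlaps the general element, was in that of Asns and in 1.02%. CCAAT, the core of the site for the factor NF-Y, was in 8 of the 12 windows, 1 each of Atf4, Ddit3, Ddit4, Chac1, Sesn2, Atf5, Psat1 and Phgdh, and in 37.4% of all windows. A match is a stretch of letters and is not evidence of binding.

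The libraries were first compared as a whole. FPKM do not hold read numbers, so the absolute depth is unknown, and the depth relative to scramble replicate 1 lay between 0.828 and 1.21. Of 11 neuronal marker genes, 9 had a mean of at least 1 FPKM in every group, with Nefl and Nefm below it, while 13 or 14 of 16 markers of fibroblasts, glia, leukocytes and endothelium lay under 1 FPKM. Summed neuronal markers ranged over 469-511 FPKM in scramble and 648-665 FPKM in siEXOSC3, and over 466-505 and 435-481 FPKM in scramble and siDDX1 of the other table. The median of the markers' mean levels was higher in both knockdowns, at 48.7 against 32.5 FPKM in siEXOSC3 and 45.3 against 32.2 FPKM in siDDX1. The summed markers of the other cell types ranged over 8.29-9.76 FPKM in scramble and 10.1-14.2 FPKM in siEXOSC3, without overlap, and over 8.23-9.65 and 9.54-10.6 FPKM in scramble and siDDX1, with 5 or 6 of the 16 at 0 in every library of a group. The part of these markers in the results below was not tested. In such bulk RNA, fewer cells of a kind and less RNA per cell cannot be told apart. Exosc3 was at 15.5% ± 1.90 (SD, n = 3) of scramble in siEXOSC3, and Ddx1 at 24.4% ± 2.99 (SD, n = 3) in siDDX1 (exact two-sided permutation p = 0.1 each, the smallest that 3 against 3 can give). In siDDX1, replicate 3 stood apart: without it, 3524 genes passed the test in place of 1182. Members whose values rest on that library are given with and without it. In siEXOSC3, 4887 genes passed without replicate 2 in place of 3644.

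In scramble cells the members spanned a wide range of transcript levels per length. Atf4 was the highest at 797 FPKM ± 25.2 (SD, n = 3), a level above that of 98.9% of the genes tested with siEXOSC3. Next came the asparagine synthetase gene Asns at 454 FPKM ± 13.6 and Ddit3 at 386 FPKM ± 29.1. The serine synthesis genes Phgdh and Psat1 followed at 265 FPKM ± 12.4 and 204 FPKM ± 3.37. Only 1 pair of neighbours in this order had overlapping library ranges, Ddit4 at 122 FPKM ± 14.6 and Trib3 at 122 FPKM ± 6.14. Atf5 stood at 73.8 FPKM ± 3.26 and Chac1 at 44.4 FPKM ± 9.34. Sesn2 was the lowest at 22.5 FPKM ± 4.27, still above 64.7% of the genes tested. The order was the same with the scramble values of the siDDX1 table, which hold the same libraries at a slightly different scale.

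**Figure D1:**
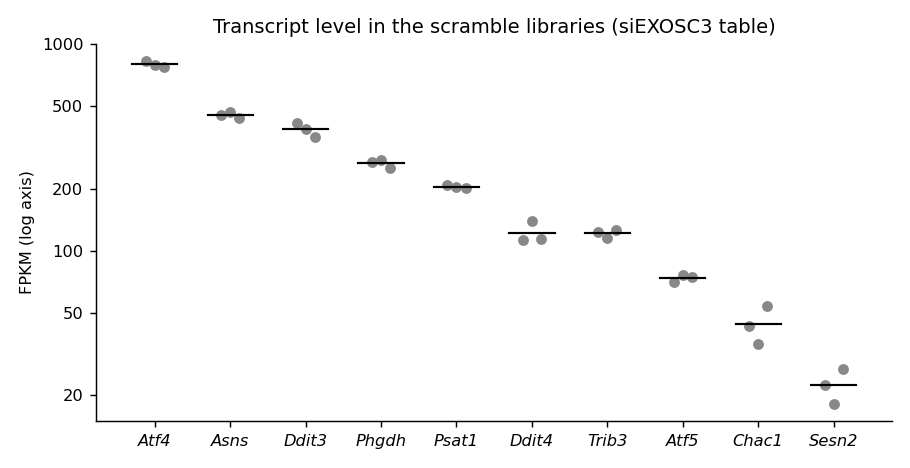
Transcript level (FPKM, log axis) of the 10 members in the 3 scramble libraries of the siEXOSC3 table; points are libraries and lines are means. Levels fall from 797 FPKM for Atf4 to 22.5 FPKM for Sesn2, and only Ddit4 and Trib3 overlap as neighbours.

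Each knockdown was compared with the scramble libraries of its own table on the log2(FPKM + 1) scale, a scale that understates the changes of low genes. A gene was said to pass the test when its limma p-value, adjusted over all genes tested, was under 0.05. The same 3 scramble libraries serve both tables, and a deviation of theirs enters both comparisons. The difference between the knockdowns was not tested, since the tables were scaled separately.

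In siEXOSC3, 2 of the 10 members passed the test as higher, Ddit3 and Ddit4, and 0 as lower, where 32.4% of all 11242 genes tested passed, 16.7% higher and 15.7% lower. The members' median log2 fold change was -0.14, against -0.014 over all genes tested, and 4 of the 10 were above 0. Without siEXOSC3 replicate 3, the members' median was -0.068. Groups did not overlap for 6 members, 2 higher and 4 lower, beside 49.7% of all genes, 23.8% higher and 25.9% lower. In siDDX1, 4 members passed as higher, Ddit3, Ddit4, Asns and Atf5, and 0 as lower, where 10.6% of 11104 genes passed, 5.61% higher and 5.03% lower. Their median log2 fold change was 0.23, against -0.00059 over all genes, and 8 of the 10 were above 0. The medians of the further lists described below ran from -0.094 for the eIF2alpha kinases, phosphatases and their regulators to 0.25 for the ER chaperone and XBP1 or ATF6 genes. Of the latter, 11 of 12 were above 0. Groups did not overlap for 6 members in that table, each higher in the knockdown, beside 34.7% of all genes, 17.0% higher and 17.8% lower. These counts describe genes picked with the comparisons known.

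**Figure D2:**
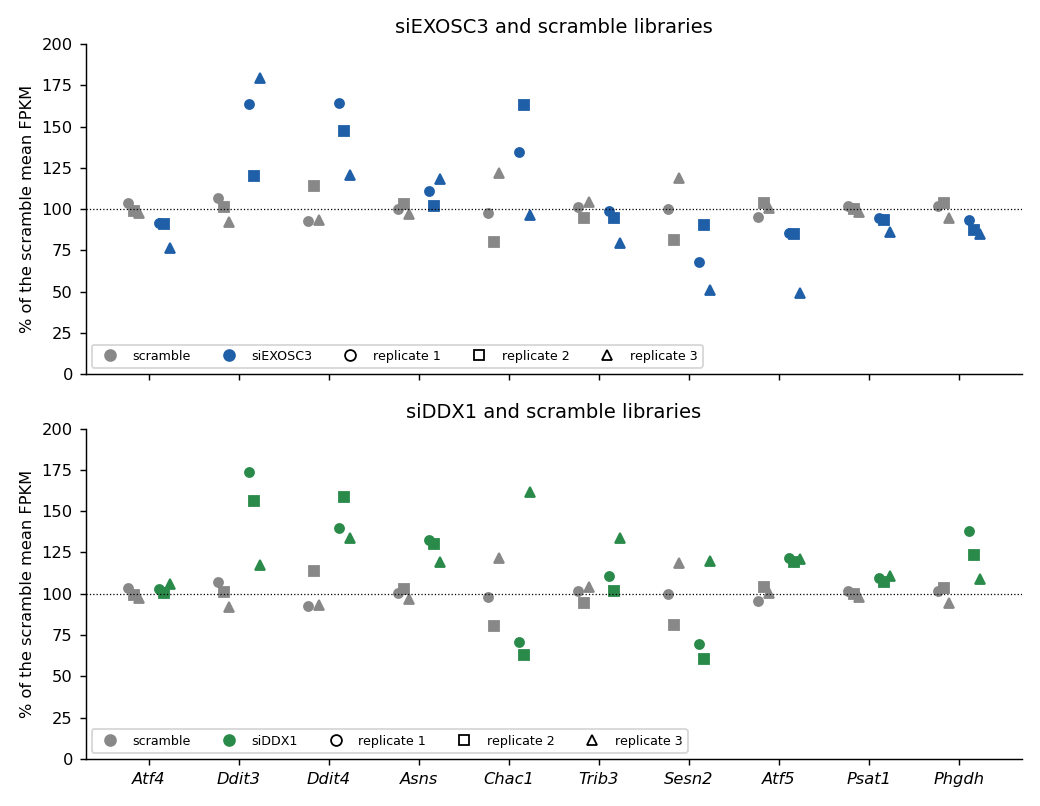
Each member's FPKM as a percentage of its scramble mean, in the siEXOSC3 table (top) and the siDDX1 table (bottom); gray points are scramble libraries, coloured points knockdown libraries, and the symbol gives the replicate. Ddit3 and Ddit4 lie above every scramble library in both tables, while Chac1 and Sesn2 spread widely, with siDDX1 replicate 3 far above the other siDDX1 libraries.

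The transcription factor genes among the members, Atf4, Ddit3 and Atf5, are given first, and differences between them were not tested. Atf4 (chr15:80085614-80087970, plus strand), which encodes the activator itself, read 727, 725 and 611 FPKM in the siEXOSC3 libraries 1 to 3 and 825, 789 and 776 FPKM in scramble. Every siEXOSC3 library lay below every scramble library, with a log2 fold change of -0.22 (SE 0.088), and the gene did not pass the test. It did pass as lower under quantile normalization, at -0.24, and with the GC and length trend removed, at -0.28, and its value shrank to -0.13 without siEXOSC3 replicate 3. In siDDX1, Atf4 read 811, 794 and 836 FPKM against 818, 783 and 767 FPKM in scramble. Those groups overlapped, and the log2 fold change of 0.044 (SE 0.076) turned to -0.18 under quantile normalization and to -0.0059 with the GC and length trend removed. Atf4 was the most abundant member, and its difference from scramble was smaller than that of Ddit3 or Ddit4, genes that ATF4 is known to activate, in both tables.

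Ddit3 (chr10:126727830-126733344, plus strand) encodes CHOP, a factor that ATF4 induces and that promotes cell death under lasting stress. It read 633, 464 and 693 FPKM in siEXOSC3 against 413, 390.2 and 356 FPKM in scramble. All siEXOSC3 libraries were above all scramble libraries, at 154% ± 30.7 (SD, n = 3) of the scramble mean, with a log2 fold change of 0.61 (SE 0.142). In siDDX1 it read 665, 598 and 451 FPKM against 410.2, 387 and 351 FPKM, again without overlap. The level there was 149% ± 28.7 of scramble, with a log2 fold change of 0.56 (SE 0.140), and replicate 3 was the lowest of the knockdown libraries. Without that library, the log2 fold change was 0.72.

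Whether Ddit3 passed the test depended on the libraries kept. In siEXOSC3 it no longer passed without siEXOSC3 replicate 1 or without scramble replicate 3, and in siDDX1 it passed only in the fit without siDDX1 replicate 3 among the 6 fits that left out a library. In siDDX1 it also did not pass with no filter on low FPKM or with no intensity trend. Over all 14 alternatives its log2 fold change ran from 0.49 to 0.78 in siEXOSC3 and from 0.43 to 0.72 in siDDX1. In most fits that left out a library, a smaller share of all genes passed too. Without scramble replicate 3 that share was 17.7% in siEXOSC3 in place of 32.4%, and 1.44% in siDDX1 in place of 10.6%. The passes lost without a library, here and below, stand beside that fall. Ddit3 overlaps Mars, the methionyl-tRNA synthetase gene on the opposite strand, and the libraries do not keep strand. Mars had log2 fold changes of 0.043 and 0.14 in siEXOSC3 and siDDX1 and did not pass the test in either.

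Atf5 (chr7:52067627-52072028, minus strand) encodes a related factor whose mRNA is also translated under eIF2alpha phosphorylation. In siEXOSC3 it read 62.9, 62.7 and 36.3 FPKM against 70.3, 76.8 and 74.4 FPKM in scramble. All knockdown libraries were lower, replicate 3 by far the most, with a log2 fold change of -0.49 (SE 0.187) that did not pass the test. The gene passed without siEXOSC3 replicate 2, at -0.61, without replicate 3, at -0.23, and with the GC and length trend removed, at -0.62. In siDDX1 the gene read 88.8, 87.2 and 88.5 FPKM against 69.8, 76.2 and 73.5 FPKM. All were above scramble and within 1.02-fold of each other, with a log2 fold change of 0.27 (SE 0.057). It passed the test there, but not under quantile normalization, where the log2 fold change was 0.22, nor in the 5 fits that left out any library other than siDDX1 replicate 3. Atf5 overlaps Nup62 and Il4i1 on the opposite strand, and Nup62 had log2 fold changes of -0.13 in siEXOSC3 and -0.00053 in siDDX1.

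Ddit4, Trib3 and Sesn2 encode regulators of growth signalling and of the response itself. Ddit4 (chr10:59412423-59414518, minus strand), also called REDD1, restrains the growth kinase complex mTORC1 and is induced by ATF4 as well as by hypoxia. It read 201, 180.2 and 148 FPKM in siEXOSC3 against 113, 139 and 114 FPKM in scramble. In siDDX1 it read 169.5, 192 and 162 FPKM against 112, 138 and 113 FPKM. In both tables all knockdown libraries exceeded all scramble libraries, at 144% ± 22.0 and 144% ± 13.0 (SD, n = 3) of scramble. The log2 fold changes were 0.52 (SE 0.124) in siEXOSC3 and 0.53 (SE 0.0995) in siDDX1. Ddit4 and Ddit3 were the members that passed the test in both tables.

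Whether Ddit4 passed the test also depended on the libraries kept. In siEXOSC3 it no longer passed without siEXOSC3 replicate 1, scramble replicate 1 or scramble replicate 3, and in siDDX1 without siDDX1 replicate 2, scramble replicate 1 or scramble replicate 3. Over the 14 alternatives its log2 fold change lay between 0.39 and 0.64 in siEXOSC3 and between 0.45 and 0.62 in siDDX1. Without scramble replicate 1, 14.3% of all genes passed in siEXOSC3 and 1.42% in siDDX1. Without siDDX1 replicate 2, 3.15% of all genes passed.

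Trib3 (chr2:152163158-152169768, minus strand) is a pseudokinase that CHOP and ATF4 induce and that feeds back on ATF4. It read 121, 115 and 96.6 FPKM in siEXOSC3 against 124, 115 and 127 FPKM in scramble, and 134, 123 and 161 FPKM in siDDX1 against 123, 114 and 125 FPKM. The groups overlapped in both tables, with log2 fold changes of -0.14 (SE 0.091) and 0.20 (SE 0.099). Without siEXOSC3 replicate 3, the lowest library, the first of these was -0.044, and without siDDX1 replicate 3, the highest, the second was 0.088. The GC and length correction took the first to -0.26, and quantile normalization the second to 0.12. Trib3 did not pass in any of the 14 alternatives of either comparison.

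Sesn2 (chr4:132047947-132066416, minus strand) encodes sestrin 2, a leucine-binding inhibitor of mTORC1 signalling. It read 15.2, 20.4 and 11.5 FPKM in siEXOSC3 against 22.5, 18.2 and 26.8 FPKM in scramble. The ranges overlapped at siEXOSC3 replicate 2, and the log2 fold change of -0.51 (SE 0.195) did not pass the test. Without that library it was -0.70 and passed, as it did with the GC and length trend removed, at -0.61, while without siEXOSC3 replicate 3 it was -0.32. In siDDX1 Sesn2 read 15.5, 13.4 and 26.8 FPKM against 22.3, 18.1 and 26.5 FPKM. Replicates 1 and 2 lay below every scramble library and replicate 3 above every one, so the log2 fold change was -0.29 (SE 0.233) with replicate 3 and -0.58 without it, where it passed. It was -0.10 without siDDX1 replicate 2 and -0.17 without scramble replicate 3. Sesn2 shares its strand and part of its span with the gene model Gm12981.

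Chac1 (chr2:119176965-119180117, plus strand) encodes an enzyme that breaks down glutathione and is among the most inducible targets of the ATF4 and CHOP branch. It read 59.8, 72.3 and 42.7 FPKM in siEXOSC3 against 43.3, 35.6 and 54.2 FPKM in scramble. Replicates 1 and 2 were above every scramble library and replicate 3 lay within their range, with a log2 fold change of 0.37 (SE 0.199). In siDDX1 it read 31.0, 27.8 and 71.1 FPKM against 43.0, 35.3 and 53.5 FPKM. There, replicates 1 and 2 were below all scramble libraries and replicate 3 above them all, and the log2 fold change was -0.13 (SE 0.318). It became -0.55 without replicate 3, where it passed the test as lower, and 0.039 or 0.12 without replicate 1 or 2. Leaving out scramble replicate 2 or 3 gave -0.27 or 0.019. In siEXOSC3, leaving out replicate 3 gave 0.58, and Chac1 then passed as higher, while it was 0.20 without siEXOSC3 replicate 2, 0.23 without scramble replicate 2 and 0.25 with the GC and length trend removed.

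Chac1 and Sesn2 were also the least even members within the scramble group. Their highest scramble library was 1.52 and 1.47 times their lowest in the siEXOSC3 table, and the SD of their log2 values exceeded that of 98.1% and 97.2% of the genes tested. Within siDDX1 these ratios were 2.56 for Chac1 and 1.99 for Sesn2, and the SD exceeded that of 99.8% and 98.9% of genes. Psat1 was the opposite case. Its scramble libraries lay within 1.03-fold of each other, with an SD of log2 values above that of only 6.80% of the genes tested. The fold changes of Chac1 and Sesn2 had the largest standard errors of the members in both tables.

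Asns, Psat1 and Phgdh encode enzymes of amino acid synthesis. Asns (chr6:7625169-7643254, minus strand) makes asparagine and is a textbook target of ATF4 under amino acid shortage. It read 504, 462 and 538 FPKM in siEXOSC3 against 455, 467 and 440.2 FPKM in scramble. These groups overlapped through siEXOSC3 replicate 2, and the log2 fold change was 0.14 (SE 0.077), or 0.089 without siEXOSC3 replicate 3 and 0.094 under quantile normalization. In siDDX1 it read 598, 585 and 536 FPKM against 451, 464 and 435 FPKM, so that no siDDX1 library reached down to a scramble value. The level was 127% ± 7.21 (SD, n = 3) of scramble, with a log2 fold change of 0.35 (SE 0.075) that passed the test. It stayed between 0.20 and 0.39 over the 14 alternatives, and passed in only 1 of the 6 fits that left out a library, that without siDDX1 replicate 3, at 0.39.

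Phgdh (chr3:98117093-98143913, minus strand) carries out the first step of serine synthesis from glycolysis. It read 247, 230.4 and 224 FPKM in siEXOSC3 against 269, 274 and 250.5 FPKM in scramble, all lower, with a log2 fold change of -0.18 (SE 0.070). In siDDX1 it read 362, 323 and 285 FPKM against 267, 272 and 248 FPKM, all higher, with a log2 fold change of 0.30 (SE 0.0945). Phgdh passed in neither table as a whole. It passed as lower in siEXOSC3 under quantile normalization at -0.20 and with the GC and length trend removed at -0.28, and as higher in siDDX1 without siDDX1 replicate 3 at 0.38. In siDDX1 it also passed as higher with the replicate number as a block.

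Psat1 (chr19:15979168-16021827, minus strand) carries out the next step of the same route. It read 192, 189.8 and 176 FPKM in siEXOSC3 against 207, 203 and 201 FPKM in scramble. In siDDX1 it read 222, 216 and 223 FPKM against 206, 202 and 198 FPKM. The knockdown libraries were all lower in the first table and all higher in the second, by small amounts: the log2 fold changes were -0.13 (SE 0.064) and 0.13 (SE 0.057), and neither passed the test in any alternative. Under quantile normalization the second was 0.045. Psat1 overlaps the gene model Gm3329 on the opposite strand.

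**Figure D3:**
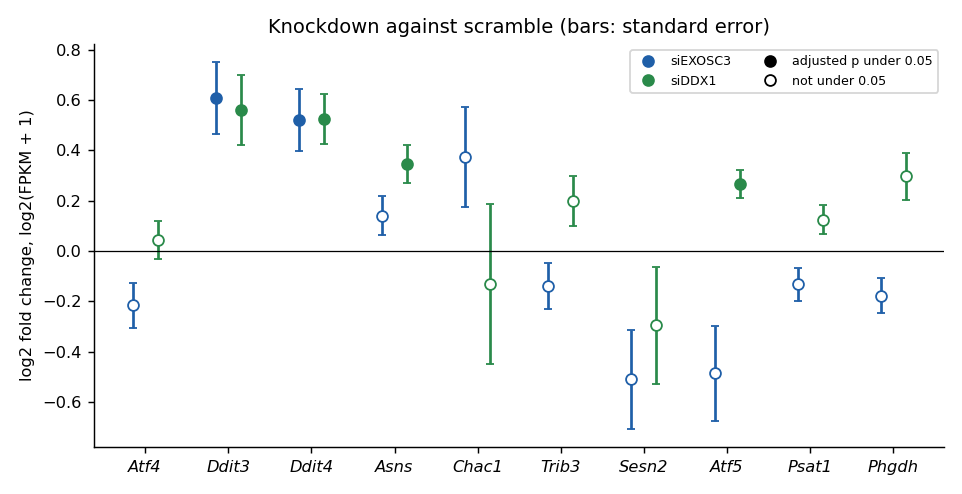
Log2 fold change on log2(FPKM + 1) of each member in siEXOSC3 (blue) and siDDX1 (green) against the scramble libraries of the same table; bars are the standard error, and filled points passed the test over all genes. Ddit3 and Ddit4 are near 0.5 to 0.6 in both, while Atf5, Psat1 and Phgdh lie below 0 in siEXOSC3 and above 0 in siDDX1.

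The libraries of a group did not rank alike over the members. In siEXOSC3, replicate 3 was the lowest library for 8 members, beside 42.9% of all genes tested, and the highest for Ddit3 and Asns. Replicate 1 was the highest for 6, beside 22.0% of all genes. In siDDX1, replicate 3 was the highest library for 5 members (Atf4, Chac1, Trib3, Sesn2 and Psat1) and the lowest for 4 (Ddit3, Ddit4, Asns and Phgdh). Over all genes tested, replicate 3 lay above both other siDDX1 libraries for 40.3% and below both for 40.7%. Without siDDX1 replicate 3, 7 members passed the test, 5 higher (Ddit3, Ddit4, Asns, Atf5 and Phgdh) and 2 lower (Chac1 and Sesn2), where 31.7% of all genes passed. Without siEXOSC3 replicate 3, 4 members passed, Ddit3, Ddit4 and Chac1 as higher and Atf5 as lower, where 28.8% of all genes passed. Leaving out siEXOSC3 replicate 2 also gave 4, Ddit3 and Ddit4 as higher and Sesn2 and Atf5 as lower, where 43.5% of all genes passed.

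In 7 of the 8 further pathway lists, those other than the ER list, siDDX1 replicate 3 lay above both other siDDX1 libraries for 37.5% (3 of 8 stress outputs) to 80.0% (8 of 10 kinases, phosphatases and their regulators) of the genes tested, with 6 of 13 genes for tRNA synthetases and export, beside 40.3% of all genes. It lay below both for the other 7 of those 13 (53.8%), beside 40.7% of all genes. The median difference was -0.049 for these 13 genes and -0.040 for the stress outputs on the log2 scale, and above 0 for the rest of the 7 lists. Some single genes divided siDDX1 replicate 3 from replicates 1 and 2, and those that follow were chosen after their values were seen. Slc7a11, the cystine importer of the ATF4 response, stood at 60.5% and 59.5% of the scramble mean in replicates 1 and 2 and at 117% in replicate 3. Ppp1r15a, the stress-induced subunit that directs the eIF2alpha phosphatase, stood at 98.3%, 97.9% and 143%. The ER chaperone gene Hspa5 went the other way, with 160% and 154% in replicates 1 and 2 and 107% in replicate 3. Of the 12 ER chaperone and XBP1 or ATF6 genes, 10 were lower in siDDX1 replicate 3 than in both other siDDX1 libraries, beside 40.7% of all genes. The same number was lower in scramble replicate 3 than in the other scramble libraries, beside 38.9% of all genes, by a smaller median difference (-0.12 against -0.38 on the log2 scale). Impact, an inhibitor of the activation of the kinase GCN2, was at 47.3% in siDDX1 replicate 3 and at 89.7% and 89.4% in the others.

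**Figure D4:**
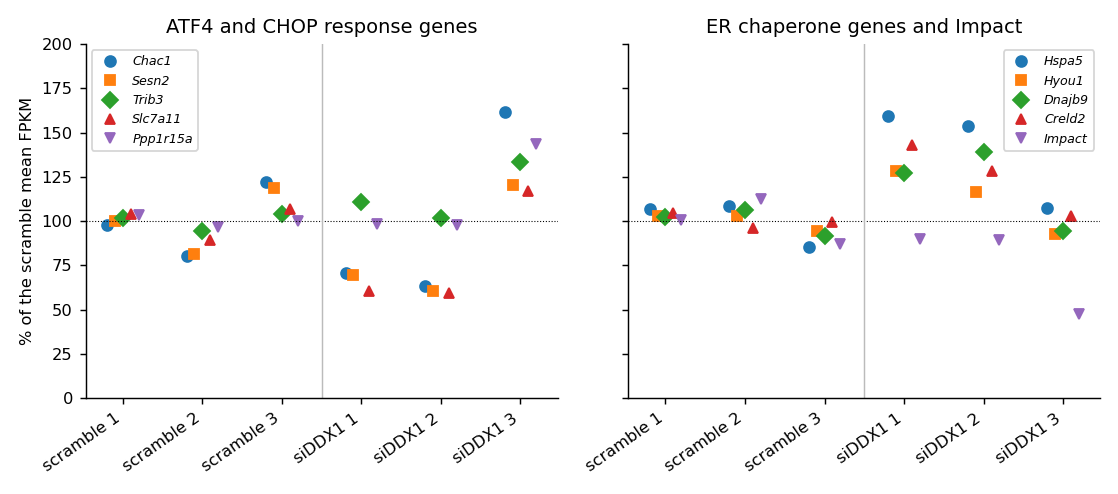
FPKM as a percentage of the scramble mean in the 6 libraries of the siDDX1 table, for 5 genes of the ATF4 and CHOP response (left) and 4 ER chaperone genes with Impact (right); each point is a library. Chac1, Sesn2 and Slc7a11 are below scramble in siDDX1 replicates 1 and 2 and above its mean in replicate 3, where the ER chaperone genes lie near the scramble mean and Impact is at 47.3%.

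The rest of the pathway was followed through 79 further genes in 8 lists, of which 73 were tested with siEXOSC3 and 74 with siDDX1. In siEXOSC3, 7 of them rose and 18 fell, with a median log2 fold change of -0.06, where 16.7% of all genes rose and 15.7% fell. In siDDX1, 12 passed as higher, counting Fgf21, which entered through its siDDX1 values alone, and 2 fell, with a median of 0.10, where 5.61% of all genes rose and 5.03% fell. The counts of each list below stand beside these same shares of all genes. These counts also hang on single libraries, since the number that passed ran from 10 to 33 in siEXOSC3 and from 1 to 37 in siDDX1 when each library was left out in turn. The adjusted p-values that follow are from limma over all genes tested. Since the lists were chosen with earlier results of these data known, these p-values and counts describe the genes and are not independent support.

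The kinases that phosphorylate eIF2alpha showed modest transcript differences. Eif2ak1, the heme-sensing kinase HRI, fell in siEXOSC3 by 0.35 on the log2 scale (SE 0.082, adjusted p = 0.0144), though not when scramble replicate 3 was left out (adjusted p = 0.0607), and had -0.14 in siDDX1 (adjusted p = 0.200). Eif2ak2, the double-stranded RNA sensor PKR, fell in siDDX1 by 0.50 (SE 0.086, adjusted p = 0.0135) and had -0.25 in siEXOSC3 (adjusted p = 0.0667). It did not pass in siDDX1 without siDDX1 replicate 2 or without scramble replicate 1 or 3, with adjusted p up to 0.0782. Eif2ak3, the ER kinase PERK, had log2 fold changes of 0.21 and 0.22 in siEXOSC3 and siDDX1, and Eif2ak4, the amino acid sensor GCN2, had 0.11 and -0.18, none of which passed with all libraries. Eif2ak3 passed as higher without siEXOSC3 replicate 2 (0.29, adjusted p = 0.0184) and without siDDX1 replicate 3 (0.29, adjusted p = 0.0157), and Eif2ak2 passed as lower in siEXOSC3 without siEXOSC3 replicate 2 (-0.33, adjusted p = 0.0138), with -0.16 without siEXOSC3 replicate 3. Eif2ak4 in siEXOSC3 was at 0.015 without siEXOSC3 replicate 3 and at 0.18 without replicate 2. Of the 10 genes of this list, 2 fell in siEXOSC3, Eif2ak1 and Ppp1r15b, the constitutive phosphatase subunit (-0.28, adjusted p = 0.0306, and up to 0.122 when a library was left out). In siDDX1, Eif2ak2 was the 1 gene that fell, and 0 rose in either table. Of the 5 tested partner factors, Nupr1, a small chromatin protein gene induced by ATF4, fell in siEXOSC3 by 0.29 (adjusted p = 0.0279) and 0 passed in siDDX1. Ppp1r15b did not pass without siEXOSC3 replicate 1 or any 1 of the scramble libraries, nor Nupr1 without siEXOSC3 replicate 1 or scramble replicate 1 or 2 (adjusted p up to 0.117). With no filter on low FPKM, Ppp1r15b had an adjusted p of 0.0511.

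The genes of serine, one-carbon, proline and alanine synthesis divided in siEXOSC3, where 5 of 12 fell and 2 rose, beside 15.7% and 16.7% of all genes. Gpt2, which makes alanine, and Shmt1, which makes glycine from serine, fell by 0.51 and 0.40 on the log2 scale (adjusted p = 0.0143 and 0.0230). Pycr1, which completes proline synthesis in mitochondria, rose by 0.52 (SE 0.085, adjusted p = 0.00415). In siDDX1, 3 of the 12 rose and 0 fell, beside 5.61% and 5.03% of all genes, among them Pycr1 by 0.60 (SE 0.082, adjusted p = 0.00746) and the folate enzyme gene Aldh1l2 by 0.31 (adjusted p = 0.0152). Pycr1 was the 1 gene named here that passed in both tables and in every alternative of each. Gpt2 and Shmt1 did not pass without scramble replicate 1 or 3 (adjusted p up to 0.0609 and 0.0943), nor Shmt1 with no filter on low FPKM (adjusted p = 0.0522). In siDDX1, Aldh1l2 passed only without siDDX1 replicate 1 or 3 among the fits that left out a library, with adjusted p up to 0.0793.

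Of the 9 amino acid transporter genes of the response, 5 fell and 0 rose in siEXOSC3, beside 15.7% and 16.7% of all genes. Slc7a11 fell by 0.78 on the log2 scale (SE 0.158, adjusted p = 0.00877), and Slc38a2, a carrier of small neutral amino acids, by 0.77 (SE 0.123, adjusted p = 0.00391). Both passed in all 14 alternatives. Slc6a9, a glycine transporter, fell by 0.33 (adjusted p = 0.0267, up to 0.0911 without siEXOSC3 replicate 1 or scramble replicate 1 or 3, and 0.0526 with no filter on low FPKM). In siDDX1, Slc38a2 fell by 0.30 (adjusted p = 0.0237), and the list genes Slc1a5 and Slc3a2 rose by 0.31 and 0.26 (adjusted p = 0.0445 and 0.0326). None of these 3 passed in the 5 fits that left out a library other than siDDX1 replicate 3, with adjusted p up to 0.116, 0.133 and 0.139. Slc1a5 also did not pass with no filter (adjusted p = 0.0785), under quantile normalization (0.0861) or with no intensity trend (0.0643), and Slc3a2 did not pass under quantile normalization (0.0502). Slc7a11 had -0.38 in siDDX1 and did not pass. It ran from -0.68 to -0.23 over the alternatives, and passed as lower only without siDDX1 replicate 3 (adjusted p = 0.000676).

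Of the 13 genes for tRNA synthetases and tRNA export, 4 fell and 0 rose in siEXOSC3, beside 15.7% and 16.7% of all genes. The tRNA exporter gene Xpot fell by 0.47 (adjusted p = 0.0105), the alanyl-tRNA synthetase gene Aars by 0.38 (adjusted p = 0.00435) and the leucyl-tRNA synthetase gene Lars by 0.33 (adjusted p = 0.00983). In siDDX1, 2 rose and 0 fell, beside 5.61% and 5.03% of all genes: the isoleucyl and glycyl-tRNA synthetase genes Iars (0.46, adjusted p = 0.01005) and Gars (0.33, adjusted p = 0.0268). Lars did not pass without scramble replicate 1 (adjusted p = 0.0538) nor Iars without scramble replicate 3 (adjusted p = 0.0576). Gars passed only without siDDX1 replicate 3 among the fits that left out a library, with adjusted p up to 0.115 in the others. It did not pass under quantile normalization either, at 0.19 (adjusted p = 0.0523).

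The stress outputs held the 2 largest rises of the 8 lists in siEXOSC3, those of Ero1l and Bbc3. Ero1l, an ER oxidase gene that CHOP is known to activate, was at 203% ± 47.9 (SD, n = 3) of scramble there and at 161% ± 21.1 in siDDX1, with log2 fold changes of 0.99 and 0.68 (adjusted p = 0.00340 and 0.00790). Vegfa, a growth factor gene induced by ATF4 and by hypoxia, rose by 0.50 and 0.52 (adjusted p = 0.0179 and 0.01005). Bbc3, the proapoptotic gene also called Puma, rose by 0.73 in siEXOSC3 (adjusted p = 0.00643) and had 0.37 in siDDX1 (adjusted p = 0.107, and 0.0483 without siDDX1 replicate 3). Its level was low, 3.70 FPKM in siEXOSC3 and 1.85 FPKM in scramble, so that it stood at 199.9% ± 21.8 (SD, n = 3) of scramble in siEXOSC3, and with a pseudocount of 0.1 its log2 fold change was 0.98. Fgf21 was near the filter, with a mean of 1.60 FPKM in siDDX1 and 0.765 FPKM in scramble, and was tested in that table alone through its siDDX1 values, so its log2 fold change of 0.56 is a description. It stood at 209% ± 16.8 (SD, n = 3) of scramble there, and its log2 fold change with a pseudocount of 0.1 was 0.98. In siDDX1, Ero1l and Vegfa did not pass without scramble replicate 1 or 3 (adjusted p up to 0.0531 and 0.0615), and in siEXOSC3 Vegfa did not pass without those libraries or siEXOSC3 replicate 1 (up to 0.0737). Of the 11 genes listed, 4 and 3 were below the filter. In siEXOSC3, Ero1l, Bbc3 and Vegfa rose and 0 fell, beside 16.7% and 15.7% of all genes, and in siDDX1, Ero1l and Vegfa rose, Fgf21 apart, and 0 fell, beside 5.61% and 5.03%.

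Of the relatives of the members, Sesn3, a second sestrin, fell in siEXOSC3 by 0.37 (SE 0.073, adjusted p = 0.00807), and Trib2, a relative of Trib3, rose by 0.34 (adjusted p = 0.0261). None of the 5 tested relatives passed in siDDX1, where 2 were above 0, though Trib2 passed as lower without siDDX1 replicate 3 (-0.27, adjusted p = 0.0334). Among 12 genes of the ER chaperone and XBP1 or ATF6 arm, which senses unfolded proteins apart from ATF4, Xbp1 rose in siEXOSC3 by 0.23 (adjusted p = 0.0192). Xbp1 and Atf6 rose in siDDX1 by 0.37 and 0.32 (adjusted p = 0.0114 and 0.0439). The median of these 12 genes was 0.073 in siEXOSC3, with 9 above 0, and 0.25 in siDDX1, with 11 above 0. Hspa5 itself, the main ER chaperone gene, had log2 fold changes of 0.25 and 0.47 and did not pass in either table. Trib2 did not pass without siEXOSC3 replicate 1 or scramble replicate 1 or 2 (adjusted p up to 0.0925), nor with no filter on low FPKM (0.0524). Xbp1 did not pass in siEXOSC3 without siEXOSC3 replicate 1 or any 1 of the scramble libraries (up to 0.0722), nor in siDDX1 without scramble replicate 1 or 3 (up to 0.0605), and Atf6 passed only without siDDX1 replicate 3 among such fits (up to 0.153 in the others). Atf6 also did not pass with no filter (0.0784) or with no intensity trend (0.0629).

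**Figure D5:**
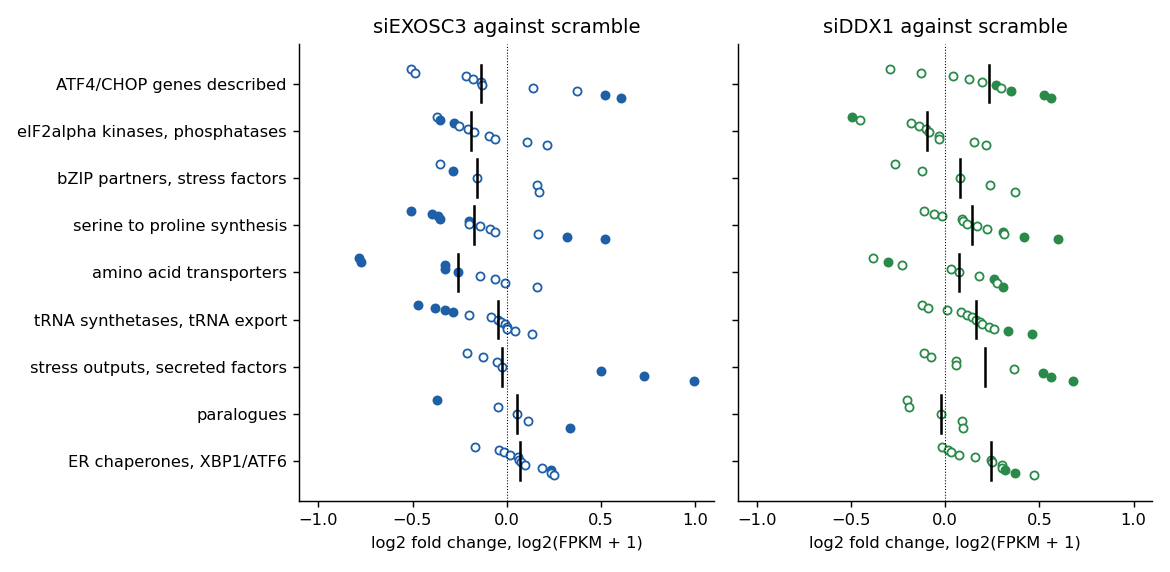
Log2 fold change on log2(FPKM + 1) of the 10 members and of the genes of the 8 further lists that were tested, in siEXOSC3 (left) and siDDX1 (right); each point is a gene, filled points passed the test, and bars are medians. The transporter genes lie mostly below 0 in siEXOSC3, where 5 of 9 fell, and the members' median is -0.14 there and 0.23 in siDDX1.

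The pattern of Atf4 over the 6 knockdown libraries was set beside that of 11044 genes tested in both tables, by the root mean square difference of log2 deviations from the scramble mean. Among the 5 nearest non-members were Aagab, Zc3h4, Mthfd2 and Nfya, with differences of 0.042 to 0.052, against a median of 0.27 over all genes. Mthfd2, a mitochondrial folate enzyme gene that ATF4 is known to activate, had log2 fold changes of -0.20 and 0.087. Among the members, Psat1 was the nearest at 0.094, with 2.65% of genes nearer, and Trib3 followed at 0.15, with 15.4% nearer. Ddit3 was the farthest at 0.75, with 96.2% of genes nearer to Atf4 than it was. Since all deviations of a library share its scaling, this likeness is a description over 6 libraries.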

How the data were processed

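RNA-seq of N2A cells was analysed from the FPKM values per gene and library that the authors deposited in 2 tables of 24318 genes. Per the submitters' processing notes, reads were aligned to mm9 with TopHat2 version 2.1.0 and processed with SAMtools and Cuffdiff version 2.2.1. The gene annotation is not given in the sources used here. The tables are scaled separately (scramble libraries differ by median factors of 1.00793, 1.00782 and 1.01188), so each test stays within a table.

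The members and gene lists, and the rule for naming genes, were chosen with earlier results of these data known. Named are the members, the targeted genes, the eIF2alpha kinases, at most 3 genes per list and comparison that passed the test (the largest absolute log2 fold changes), and the 5 genes nearest to Atf4. Genes named beyond this rule are said to be chosen after their values were seen, or are named because they overlap a member or stand in a list described. A few results that the rule would name are not reported here.

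Genes with an average FPKM of 1 or more in a table's 6 libraries were tested on log2(FPKM + 1) with limma (version 3.58.1, R version 4.3.3), using lmFit and then eBayes with an intensity trend and no covariate. The two-sided p-values were adjusted over all genes tested by the Benjamini-Hochberg method, and 0.05 was the threshold. All 10 members passed the filter in both tables. By the study's methods, the replicates are biological: 3 plates of N2A cells per condition, each divided among wells for the different assays. Relative depth came from the smallest steps of low FPKM values and is approximate. The code was checked on simulated data.

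Alternatives changed the pseudocount to 0.1, dropped the filter or raised it to 5 FPKM, applied quantile normalization or median centring, left out the intensity trend, added the replicate number as a block, removed from each library a loess trend (span 0.3) fitted to GC content and exonic length, or left out each library in turn. Positions and exons came from GENCODE vM1 on NCBIM37, with 20592 of the 24318 symbols matched to a single gene, and promoter windows from RefSeq (GRCm38.p6), which held all 10 members. Figures were drawn with matplotlib version 3.10.9.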

Additional observations from a re-analysis of the deposited data

Results flagged for a closer look

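The genes below were taken from the 10 members and from the further pathway genes that were tested in both tables. In each, every siEXOSC3 library lay on one side of the scramble mean of its table and every siDDX1 library on the other, on the log2(FPKM + 1) scale. The difference between the knockdowns was not tested for any of them, and both comparisons use the same scramble libraries. The pairs of values are log2 fold changes in siEXOSC3 and then in siDDX1.

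Among the members, Atf4 had -0.22 and 0.044, though the siDDX1 and scramble libraries overlapped. Trib3 had -0.14 and 0.20, with overlap in both tables. For Atf5 the values were -0.49 and 0.27, for Psat1 -0.13 and 0.13, and for Phgdh -0.18 and 0.30. Atf5, Psat1 and Phgdh were below every scramble library in siEXOSC3 and above every one in siDDX1.

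Of the other pathway genes, the same absence of overlap was seen for Mthfd1l, a mitochondrial folate enzyme gene, at -0.20 and 0.17, the sestrin gene Sesn3 at -0.37 and 0.097, and Sel1l, a gene of ER protein degradation, at -0.17 and 0.073. Groups overlapped in siDDX1 alone for the folate and serine enzyme genes Shmt2 (-0.37 and 0.094) and Mthfd2 (-0.20 and 0.087), the arginine transporter gene Slc7a3 (-0.26 and 0.18), and the synthetase genes Cars (-0.20 and 0.12) and Lars (-0.33 and 0.082). They overlapped in siEXOSC3 alone for the factor gene Cebpb (-0.35 and 0.37), the aspartate aminotransferase gene Got1 (-0.14 and 0.31), the synthetase gene Yars (-0.082 and 0.26) and Sesn1 (0.055 and -0.19), and in both tables for the proline synthesis gene Aldh18a1 (-0.087 and 0.12). Over the alternatives, the siDDX1 value of Lars ran from 0.034 to 0.119 and that of Sesn3 from 0.062 to 0.122.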

How the results depend on the processing

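Each comparison was recomputed under 14 alternatives. In siEXOSC3, the number of members that passed the test rose from 2 to 4 (2 higher, 2 lower) under quantile normalization, where 31.7% of all genes passed, and to 6 (2 higher, 4 lower) with the GC and length trend removed, where 35.4% passed, and lay between 0 and 4 when each library was left out. All genes that passed ranged from 1610 to 4887 (3644 with all libraries) and the further pathway genes from 10 to 33 (25 with all). In siDDX1, leaving out each library gave 0 to 7 members (4 with all), 158 to 3524 genes (1182 with all) and 1 to 37 further pathway genes (14 with all), the highest each time without siDDX1 replicate 3. A fit without a library has fewer samples. With no filter, 717 genes passed in siDDX1. Of all genes that passed, the share that were higher was 51.5% in siEXOSC3 and 52.7% in siDDX1, 57.1% and 62.0% when centred on the median, and 45.5% and 49.7% with the GC and length trend removed.

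In siEXOSC3 the replicate numbers did not pair the samples: correlations of deviations between same-numbered knockdown and scramble libraries were 0.035, -0.31 and -0.13. In siDDX1 they were -0.012, 0.38 and 0.37. There, replicates 2 and 3 correlated best with the scramble library of their own number, and replicate 1 did not. With the replicate block, 2449 genes, 2 members and 17 further genes passed in siEXOSC3, and 1893, 5 and 23 in siDDX1. Under the block, Phgdh in siDDX1 passed, and Nupr1, Slc6a9, Trib2 and Xbp1 in siEXOSC3 did not (limma adjusted p from 0.0558 to 0.0750). No siEXOSC3 library correlated best with the scramble library of its own number.

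Differences near 0 changed sign, and for these genes the values with each library left out are given as a range. Atf4 in siDDX1 became -0.18 under quantile normalization and -0.0059 with the GC and length trend removed, and ran from 0.023 to 0.070. Chac1 in siDDX1 ran from -0.55 without siDDX1 replicate 3 to 0.12 without siDDX1 replicate 2. In siEXOSC3, Ddx1 became -0.0058 under quantile normalization and ran from -0.045 to 0.040, Slc1a5 became 0.015 when centred on the median and ran from -0.055 to 0.018, and Gars became -0.044 under quantile normalization and -0.012 with the GC and length trend removed and ran from -0.029 to 0.026. In siDDX1, Ppp1r15b ran from -0.082 to 0.0039 and Slc6a9 from -0.027 to 0.15. There, Shmt1 became 0.0086 when centred on the median and ran from -0.089 to 0.052, and Trib2 became 0.0027 under quantile normalization and 0.0020 when centred on the median and ran from -0.27 to 0.14. The cause of these shifts was not tested. The absolute depth is unknown, which leaves the counting error of low genes such as Bbc3 and Fgf21 unstated.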
